A study of Mus musculus with 3 samples.

Results

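The synaptic vesicle release machinery is the set of proteins that stores transmitter vesicles at nerve endings and fuses them with the plasma membrane when calcium enters. Its genes were chosen by a symbol rule. The rule, like the gene lists used below, was set with earlier results of these data known. It took every synaptotagmin (Syt), syntaxin (Stx), syntaxin-binding protein (Stxbp), vesicle-associated membrane protein (Vamp), complexin (Cplx), synapsin (Syn), synaptogyrin (Syngr) and RIM (Rims) gene with a numbered symbol, together with Sv2a, Sv2b, Sv2c, Syp and Snap25. This gave 63 of the 16610 genes in the table. Of these, 61 had a mean of at least 20 normalised counts over the libraries and entered the counts below, while Stx11 and Syt15 fell short of that mean.

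The data were 3 libraries of mouse brain RNA, 1 per group, each a pool of 3 animals taken at day 3. The first was the left hemisphere of animals with middle cerebral artery occlusion for 1 h (MCAO, a stroke model), called MCAO left. The next was the right, opposite hemisphere of MCAO animals, called MCAO right, and the last was the right hemisphere of animals without MCAO, called the control. All were RiboTag pull-downs from the middle section of a hemisphere, so RNA attached to tagged ribosomes was read, and the labels give neither strain, age nor the Cre driver that chose the tagged cells. Repeated pull-downs were pooled and the table has 1 column per group, so no difference below has a replicate check and none has a p-value. Intervals are 95% counting intervals from the reads recovered per gene, and they cover counting error only. Side cannot be told apart from occlusion in either comparison of MCAO left, since each sets a left against a right hemisphere.

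The library depths were 25930841 recovered reads in MCAO left, 33886651 in MCAO right and 31834121 in the control. The series title names astrocytes, and 14 astrocyte markers took 1.92% of the reads in MCAO left, 2.16% in MCAO right and 1.99% in the control. Neuronal RNA was present as well: 20 neuron markers outside the vesicle machinery took 1.00%, 1.02% and 1.09% of the reads in MCAO left, MCAO right and the control, and none was listed at the minimum in any library. The 63 release genes themselves took 1.54% of the reads in MCAO left, 1.57% in MCAO right and 1.72% in the control. Fewer cells of a type and less RNA per cell cannot be told apart in such libraries.

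Vesicle fusion is driven by SNARE proteins: a vesicle protein of the VAMP family zips together with a syntaxin and SNAP-25 on the plasma membrane. Syntaxin-binding proteins hold syntaxin ready, RIM proteins anchor vesicles beside calcium channels, and complexins clamp the partly zipped complex until a synaptotagmin senses calcium. Synapsins tether the reserve pool, and synaptophysin, synaptogyrins and SV2 proteins span the vesicle membrane. Other syntaxins and VAMPs serve endosomes, the Golgi, lysosomes and secretion in cells of many kinds, astrocytes and immune cells among them.

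In MCAO left most genes of the neuronal machinery were a little lower than in the control, and RIM and synaptotagmin genes were the lowest families. The other syntaxins and VAMPs were mixed. Vamp8, Stx2 and Vamp5 were higher by at least 1.5-fold, while 5 of 11 other syntaxins and 1 of 4 other VAMPs were below the control. A gene was called where its log2(normalised count + 5) differed by at least 1.5-fold. Of the 61 members, 11 were called lower, or 18.0%, against 5.18% of all 14906 genes that met the same mean. Higher calls numbered 4 members, or 6.56%, against 9.16% of all genes. Among the 11 lower members were Syt2, Rims4, Sv2c, Syt6, Rims3, Syt10, Syt14, Rims1, Stxbp4 and Syt1. The 4 higher ones were Vamp8, Syngr2, Stx2 and Vamp5. At 2-fold, 3 members were lower (Syt2, Rims4 and Sv2c) and 0 higher, where 1.25% of all genes were lower and 4.12% higher. Counted without any size limit, 47 members were below the control and 14 above it, with a median log2 difference of -0.17, where 50.3% of all genes were below and the median was near 0.00. The neuron marker list had a median of -0.09 in the same comparison, and with differences centred on that list 39 members were below and 22 above, 8 members were called lower and 4 higher, where 3.76% of all genes were lower and 11.5% higher, and Syt1, Rims1 and Stxbp4 were no longer called.

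**Figure D1:**
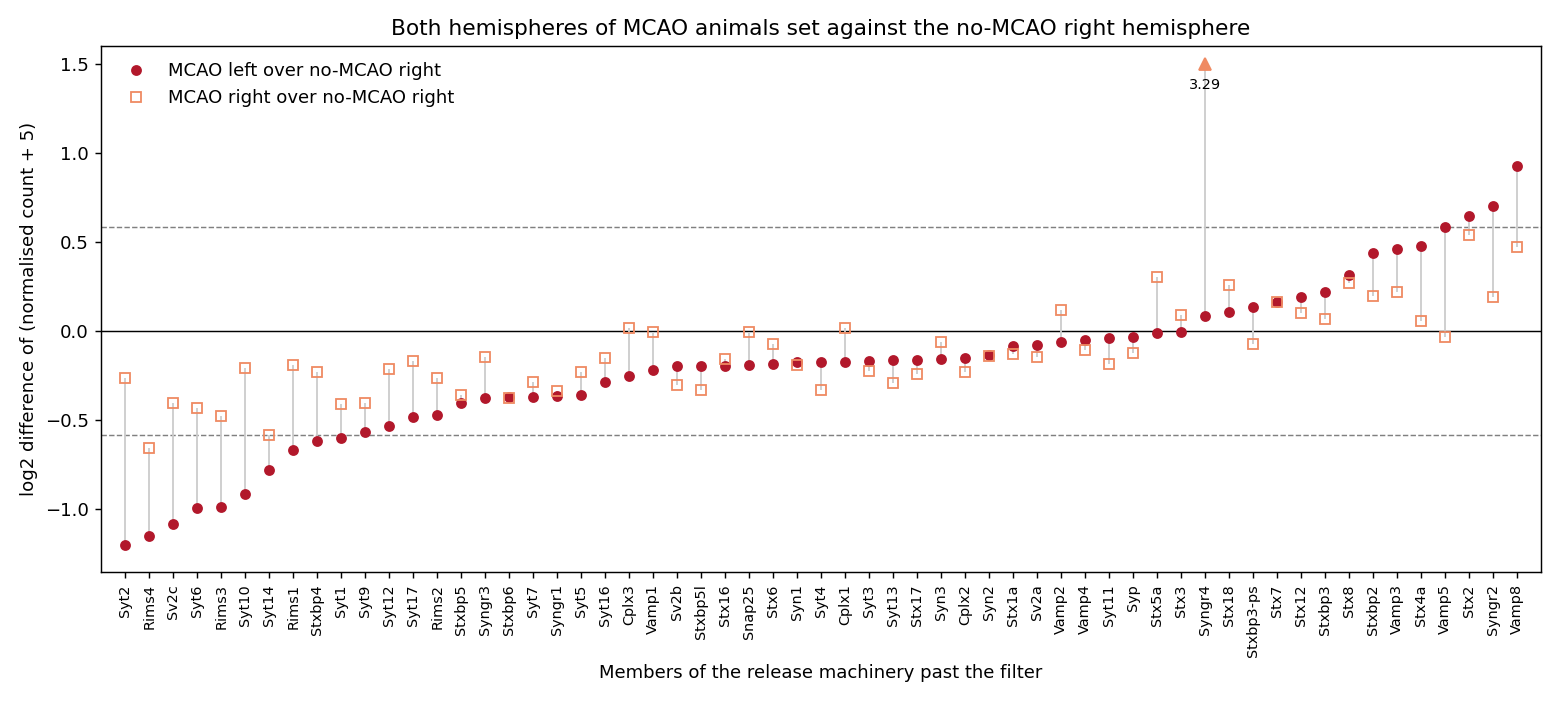
Log2 difference of the normalised count plus 5 for the members described here, ordered by MCAO left over control (filled circles), with MCAO right over control as open squares; dashed lines mark 1.5-fold. Syt2 is lowest at -1.20 and Vamp8 highest at 0.93 in MCAO left, and the Syngr4 square lies off the axis at 3.29.

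Upstream sequences of 5 members are shown because they stand for the groups that the results turn on: Sv2c and Rims3 among the lower genes, the neighbours Vamp5 and Vamp8 among the higher ones, and Syn1 as a neuronal gene close to the median member. Each is the 250 bases before a gene start in the RefSeq promoter table, build GRCm38.p6, read 5′ to 3′ on the gene's strand. The Rims3 window ends at 120854798, past the start of 120854779 given below for the gene's span, so its last bases lie within that span. Capitals mark TTCAGCACC, the first part of the element bound by the neuronal gene repressor REST, and TGACGTCA, the cyclic AMP response element.
Sv2c: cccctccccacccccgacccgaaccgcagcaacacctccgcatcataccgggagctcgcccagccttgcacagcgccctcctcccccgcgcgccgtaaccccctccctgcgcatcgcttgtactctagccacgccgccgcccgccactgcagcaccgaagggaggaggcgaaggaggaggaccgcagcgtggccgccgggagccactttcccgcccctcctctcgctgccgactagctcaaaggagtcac
Rims3: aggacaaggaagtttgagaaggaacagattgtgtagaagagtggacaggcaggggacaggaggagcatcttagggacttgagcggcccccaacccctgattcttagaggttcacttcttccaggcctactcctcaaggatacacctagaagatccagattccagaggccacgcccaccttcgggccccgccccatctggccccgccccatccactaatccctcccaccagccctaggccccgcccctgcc
Vamp5: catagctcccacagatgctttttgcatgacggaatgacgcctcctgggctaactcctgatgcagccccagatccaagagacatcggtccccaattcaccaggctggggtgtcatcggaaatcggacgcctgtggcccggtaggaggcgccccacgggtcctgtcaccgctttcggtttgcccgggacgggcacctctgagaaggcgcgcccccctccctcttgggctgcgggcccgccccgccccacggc
Vamp8: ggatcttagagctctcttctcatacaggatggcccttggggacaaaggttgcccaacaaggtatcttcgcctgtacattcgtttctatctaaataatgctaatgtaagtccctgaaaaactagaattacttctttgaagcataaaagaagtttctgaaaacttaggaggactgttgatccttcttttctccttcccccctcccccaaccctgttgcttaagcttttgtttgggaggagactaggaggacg
Syn1: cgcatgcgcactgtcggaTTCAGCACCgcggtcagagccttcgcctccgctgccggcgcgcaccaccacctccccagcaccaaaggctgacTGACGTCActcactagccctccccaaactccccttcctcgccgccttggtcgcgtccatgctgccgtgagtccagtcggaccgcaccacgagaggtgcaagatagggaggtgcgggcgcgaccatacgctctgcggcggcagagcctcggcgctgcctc
The windows lie at chr13:96132578-96132827, minus strand (Sv2c), chr4:120854549-120854798, plus strand (Rims3), chr6:72380469-72380718, minus strand (Vamp5), chr6:72390668-72390917, minus strand (Vamp8) and chrX:20920919-20921168, minus strand (Syn1). The Vamp8 window had 43.6% G and C and 3 CG pairs, while the Sv2c window had 70.8% and 26 CG pairs. The median was 62% over the 59 windows of the 46 members in the RefSeq promoter table and 52.4% over all 32851 windows. Searched on both strands, TTCAGCACC was in 1 member window, that of Syn1, and in 0.301% of all windows, and TGACGTCA was in the windows of Syn1 and Stxbp3 and in 1.55% of all windows. In the Syn1 window they began 232 and 159 bases before the start. GAGGAAGT, a core of the myeloid factor PU.1, and TTCCNGGAA, a core bound by STAT proteins, were in no member window and in 2.44% and 0.913% of all windows. None of these searched motifs overlapped another in the printed windows.

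All 5 neuronal SNARE genes were below the control in MCAO left, with a median log2 difference of -0.19, and 1 was called. Snap25, encoding the plasma membrane SNARE of nerve endings (chromosome 2, 136713439 to 136782428), had 43357 normalised counts in MCAO left, 49379 in MCAO right and 49559 in the control, and the ratio of MCAO left to control was 0.875 (0.863 to 0.887). Vamp2, the main vesicle SNARE of the forebrain, had 19459 in MCAO left, 22061 in MCAO right and 20320 in the control, a ratio to control of 0.958 (0.938 to 0.977). Vamp1, its relative of the hindbrain and spinal cord, was at 0.860 of the control (0.826 to 0.896). Stx1a, encoding a syntaxin of nerve endings (chromosome 5, 135023482 to 135051100) had 3830 normalised counts in MCAO left, 3707 in MCAO right and 4056 in the control, which put MCAO left at 0.944 of the control (0.902 to 0.989). With differences centred on the neuron list, Stx1a and Vamp2 lay just above 0 and the other 3 neuronal SNAREs stayed below it.

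Of 8 syntaxin-binding partners past the filter, 5 were below the control in MCAO left and 3 above it, with 1 called. Stxbp5, encoding the release inhibitor tomosyn, lay below the control in both MCAO hemispheres, at 0.755 (0.718 to 0.794) in MCAO left and 0.780 (0.746 to 0.817) in MCAO right. Stxbp6, encoding amisyn, was at 0.773 (0.723 to 0.826) in MCAO left and 0.770 (0.724 to 0.819) in MCAO right. Stxbp5l, encoding a relative of tomosyn, was at 0.874 (0.827 to 0.923) in MCAO left. Stxbp4, a partner of syntaxin 4, was the one called gene of this family, with 501 in MCAO left, 655 in MCAO right and 769.96 in the control, at 0.651 of the control (0.577 to 0.733), a call lost when centred on the neuron list. Stxbp2, the partner of syntaxin 11 in secretory granules of immune cells, was on the other side of the control, with 278 in MCAO left, 234 in MCAO right and 203 in the control, a ratio of 1.36 (1.13 to 1.65). Stxbp3 was at 1.16 (1.06 to 1.27), and its pseudogene Stxbp3-ps had 52 to 59 reads per library, so both may share reads and their values are uncertain.

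The RIM genes were lower in MCAO left than in either right hemisphere, all 4 of them, under each scaling tried. RIM proteins dock vesicles at the active zone. Rims4, encoding a short RIM form (chromosome 2, 163859756 to 163918973), had 159 normalised counts in MCAO left, 225 in MCAO right and 358 in the control. Rims3, the other short form (chromosome 4, 120854779 to 120896580), had 347, 496 and 692 in MCAO left, MCAO right and the control. Rims1, the long scaffold form, had 988, 1377 and 1571 in the same libraries, and Rims2 had 2709, 3134 and 3759. The order was the same for all 4 genes, with MCAO left lowest and the control highest. Set against the control, MCAO left was at 0.443 for Rims4 (0.361 to 0.541), 0.501 for Rims3 (0.436 to 0.575), 0.629 for Rims1 (0.578 to 0.684) and 0.721 for Rims2 (0.684 to 0.759), so 3 of 4 were called, and 2 when centred on the neuron list, where Rims1 was at -0.58 on the log2 scale. The median log2 difference of the family was -0.83 in MCAO left and -0.37 in MCAO right against the control, and -0.48 in MCAO left against MCAO right.

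Synaptotagmins that bind calcium were all 8 below the control in both MCAO hemispheres under each scaling tried, and 4 were called in MCAO left. The Syt1 call rests on the scaling: its log2 difference of -0.60 became -0.5846 under scaling by recovered reads and -0.51 when centred on the neuron list, both short of the call. Syt1, the fast calcium sensor of most forebrain synapses (chromosome 10, 108497650 to 109010980), had 22789 normalised counts in MCAO left, 26043 in MCAO right and 34548 in the control, at 0.660 of the control (0.648 to 0.671) in MCAO left and 0.754 (0.742 to 0.766) in MCAO right. Syt2, the fast sensor used by fast-spiking interneurons and by the hindbrain (chromosome 1, 134646534 to 134753149), had 311 in MCAO left, 598 in MCAO right and 719.6 in the control. It had the lowest ratio of all members past the filter, 0.432 (0.374 to 0.497), and was at 0.519 of MCAO right (0.449 to 0.600). Syt6 had 528 in MCAO left, 783 in MCAO right and 1056 in the control, and Syt10 had 47.1, 79.9 and 93.0. All 4 called genes were lowest in MCAO left and highest in the control. The Syt10 values rest on 40 reads in MCAO left, 90 in MCAO right and 96 in the control, and its ratio to control of 0.506 has a wide interval (0.341 to 0.739). Syt9 was just short of the call at a log2 difference of -0.57, followed by Syt7, the slow sensor of asynchronous release, at -0.37. Syt5 was at -0.36 and Syt3 at -0.17.

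The remaining synaptotagmins bind calcium weakly or not at all, and only Syt14 of 7 past the filter was called, with 423 normalised counts in MCAO left, 486 in MCAO right and 731 in the control. Both MCAO hemispheres were below the control by similar amounts, at 0.579 (0.509 to 0.657) for MCAO left and 0.665 (0.595 to 0.743) for MCAO right. Syt12 and Syt17 were at log2 differences of -0.53 and -0.48 in MCAO left. Syt11, which regulates membrane trafficking without sensing calcium and is expressed by glia as well as neurons, had 35307 in MCAO left, 31845 in MCAO right and 36220 in the control, a ratio to control of 0.975 (0.960 to 0.990), and lay above 0 when centred on the neuron list. Syt4, a synaptotagmin of dense-core vesicles, was at 0.888 (0.859 to 0.918), Syt13 at 0.892 (0.866 to 0.919) and Syt16 at 0.820 (0.765 to 0.879). Syt15 had 13 to 16 reads per library, with ratios near 1 and intervals too wide to show a difference.

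**Figure D2:**
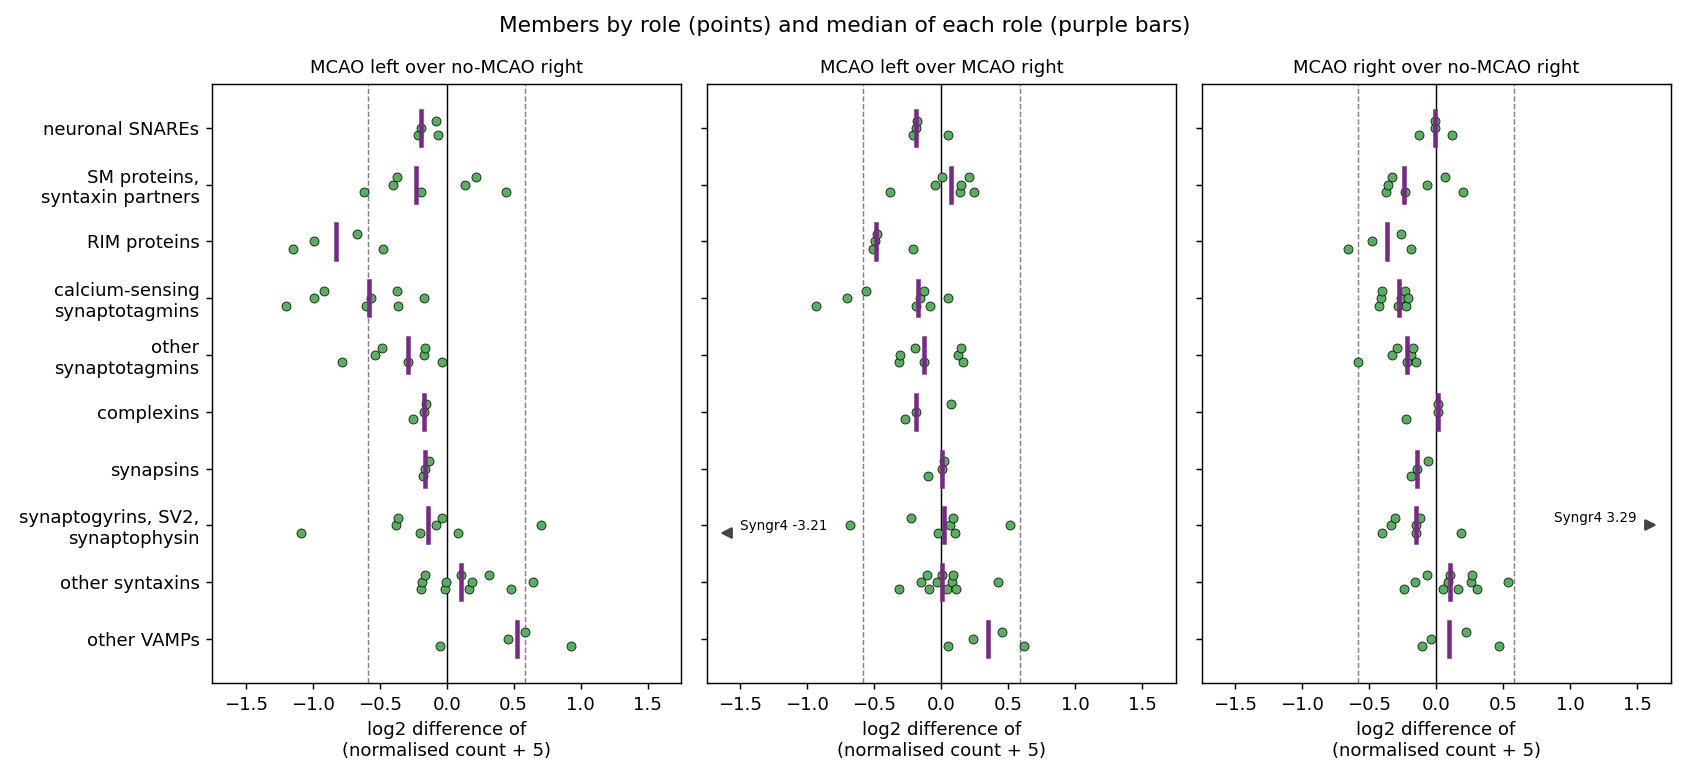
Log2 difference of the normalised count plus 5 for the members described here (points) by role, with the median over all members of each role as a purple bar, for MCAO left over control, MCAO left over MCAO right and MCAO right over control; dashed lines mark 1.5-fold. The RIM median is -0.83 in the first panel, and the other VAMPs have the highest median there, 0.52.

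Complexins, synapsins and the vesicle membrane genes Syp, Sv2a and Sv2b differed little between MCAO left and the control. Cplx2, the complexin of excitatory forebrain neurons, had 71515 normalised counts in MCAO left, 67881 in MCAO right and 79502 in the control, a ratio to control of 0.900 (0.890 to 0.909). Cplx1 was at 0.888 (0.867 to 0.909) and Cplx3, of retina and deep cortex, at 0.836 (0.692 to 1.01). The synapsins lay close together, with Syn1 at 0.886 (0.863 to 0.910), Syn2 at 0.913 (0.892 to 0.934) and Syn3 at 0.896 (0.823 to 0.975) of the control. None of these 6 genes was called in any comparison. Each synapsin gene holds a TIMP protease inhibitor gene within its span in the RefSeq annotation, and no strand setting of the counting is given in the sources used here. Timp1, inside Syn1 on chromosome X and one of the reactive astrocyte markers, had 428 normalised counts in MCAO left, 19.5 in MCAO right and 2.91 in the control, beside 11459, 11331 and 12931 for Syn1 itself in those libraries. Timp4 inside Syn2 had 3351, 3049 and 2444, and Timp3 inside Syn3 had 8182, 10075 and 10274 in MCAO left, MCAO right and the control. Stx18, Syt1 and Syt3 also overlap another listed gene.

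Among the vesicle membrane proteins, Syp, encoding synaptophysin (chromosome X, 7638580 to 7653256), had 76760 normalised counts in MCAO left, 72295 in MCAO right and 78629 in the control, so that MCAO left was at 0.976 of the control (0.966 to 0.986). Sv2a, the broadly used SV2 protein and the target of the antiepileptic drug levetiracetam, was at 0.947 (0.927 to 0.967), and Sv2b at 0.871 (0.849 to 0.894). Sv2c, the SV2 form enriched in the basal ganglia (chromosome 13, 95959443 to 96132577), stood apart from them. It had 127 in MCAO left, 207 in MCAO right and 275 in the control, a ratio of 0.462 to the control (0.367 to 0.578) and of 0.615 to MCAO right (0.485 to 0.775). The neuronal synaptogyrins Syngr1 and Syngr3 were at 0.778 (0.762 to 0.794) and 0.771 (0.739 to 0.804) of the control. Syngr2, the synaptogyrin of non-neuronal cells (chromosome 11, 117809646 to 117814286), had 418 in MCAO left, 291 in MCAO right and 255 in the control, a ratio of 1.64 (1.39 to 1.93).

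Markers of striatal projection neurons were also lower in MCAO left than in the control. All 12 were below the control in MCAO left, 11 of them called, with a median log2 difference of -1.34. Their summed level was 17318 normalised counts in MCAO left, 37493 in MCAO right and 40687 in the control. MCAO left was thus at 0.426 of the control and 0.462 of MCAO right, and MCAO right was at 0.921 of the control. No striatal marker was listed at the minimum. Drd2, a dopamine receptor gene, had 185 normalised counts in MCAO left, 761 in MCAO right and 951 in the control. The 10 cortical projection neuron markers had a median of -0.30 and 1 call, the 10 inhibitory interneuron markers a median of -0.07 and 1 lower call (Slc32a1), and the 9 thalamic and diencephalic markers a median of -0.14 and no call. None of the 20 markers in the general neuron list was called in this comparison. The part of striatal neurons in the lower values of Sv2c, Syt2, Syt6, Syt10 and the RIM genes was not tested.

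**Figure D3:**
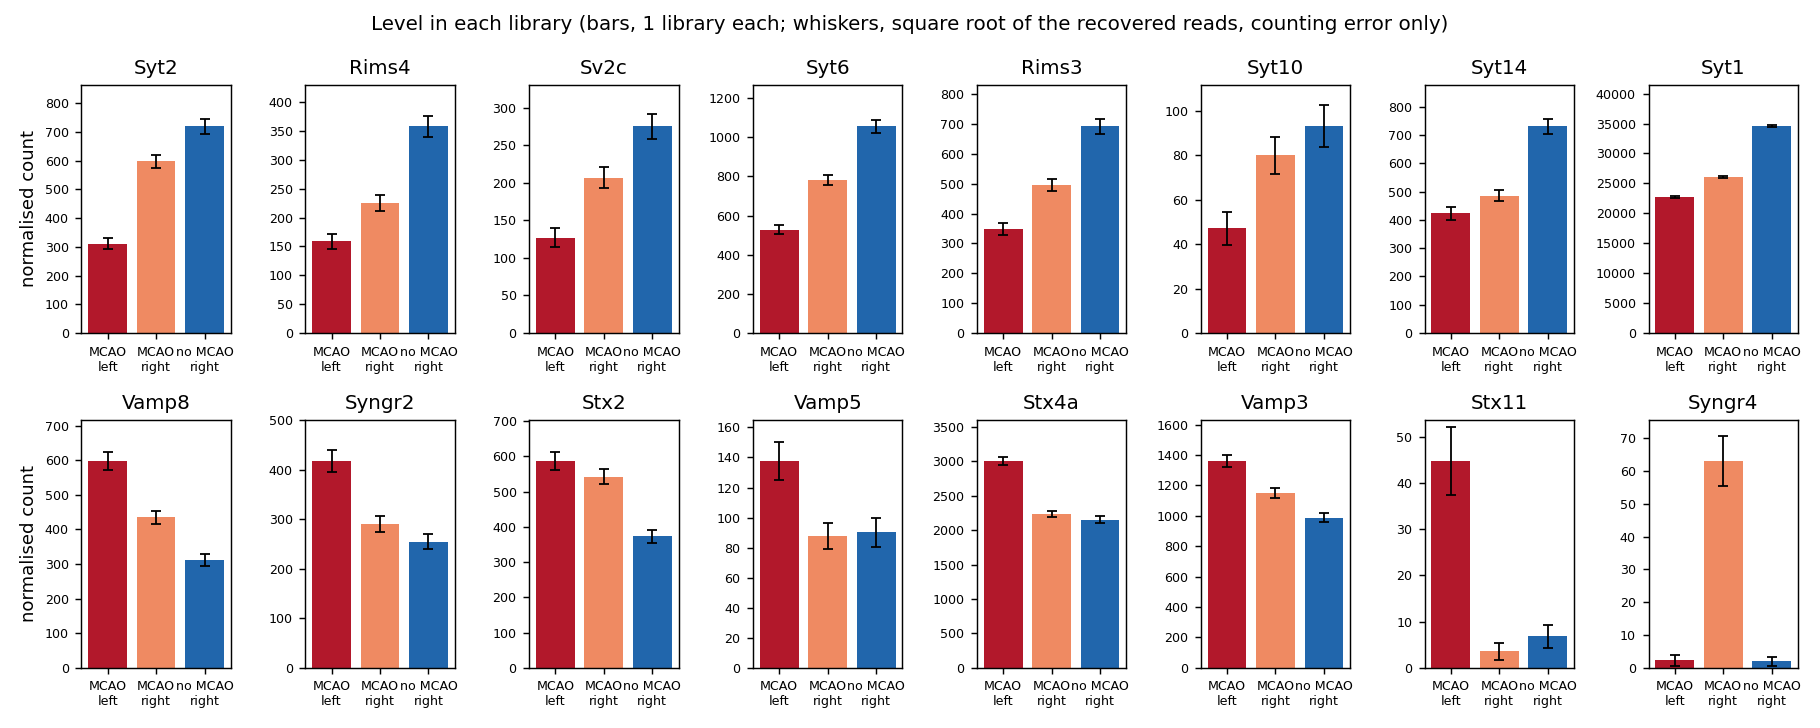
Normalised counts in each library of a chosen set of members with large differences (1 bar per library, whiskers are the square root of the recovered reads converted to normalised counts), each panel with its own axis from 0. Rims1 and Stxbp4, also called lower in MCAO left than in the control, are not shown. The upper row holds genes lowest in MCAO left, such as Syt2 at 311, 598 and 719.6; the lower row holds genes highest there, and Syngr4, which is high in MCAO right alone.

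Of the VAMP genes outside the neuronal set, 3 of 4 were above the control in MCAO left, and 2 were called. Vamp8, which serves lysosomal fusion and granule release in blood and secretory cells (chromosome 6, 72385221 to 72390667), had 598 normalised counts in MCAO left, 435 in MCAO right and 312 in the control. Both MCAO hemispheres were above the control, at 1.92 (1.66 to 2.21) for MCAO left and 1.39 (1.21 to 1.61) for MCAO right. Vamp5, a VAMP first described in muscle, lies 4752 bases away from it on the same chromosome and had 138 in MCAO left, 87.8 in MCAO right and 90.1 in the control. Its ratio to the control of 1.53 (1.15 to 2.03) sat at the edge of the call, and MCAO right and the control did not differ beyond counting error. Vamp3, the VAMP of recycling endosomes in many cells including astrocytes, was at 1.38 (1.26 to 1.499) of the control, while Vamp4, of the Golgi and endosomes, was at 0.964 (0.908 to 1.02) and moved to the other side of 0 when centred on the neuron list.

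Of 11 other syntaxins past the filter, 6 were above the control and 5 below it in MCAO left, and 1 was called, as higher. Stx2, a plasma membrane syntaxin of non-neuronal cells (chromosome 5, 128984557 to 129008600), had 587 normalised counts in MCAO left, 543 in MCAO right and 373 in the control, so both MCAO hemispheres stood above the control, at 1.57 (1.38 to 1.803) for MCAO left and 1.46 (1.28 to 1.66) for MCAO right. Stx4a, the plasma membrane syntaxin of regulated secretion in many cells, had 3004 in MCAO left, 2239 in MCAO right and 2154 in the control, a ratio of 1.39 (1.32 to 1.48). The endosomal syntaxins Stx7, Stx8 and Stx12 were at 1.12, 1.25 and 1.14 of the control, and the Golgi syntaxins Stx5a, Stx6 and Stx16 at 0.992, 0.881 and 0.874. Stx3, of apical membranes and ribbon synapses, was at 0.998. Stx17, of autophagosomes, was at 0.892 and Stx18, of the endoplasmic reticulum, at 1.08.

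Stx11, the syntaxin of immune cell granules (chromosome 10, 12938217 to 12964498), was below the mean set for the counts but had 44.7 normalised counts in MCAO left, 3.55 in MCAO right and 6.78 in the control. This corresponds to 38 reads in MCAO left, 4 in MCAO right and 7 in the control, and to a ratio of 6.59 to the control (2.91 to 17.5). No other member had so high a ratio of MCAO left to control. Of 16 microglia and macrophage markers, 14 were called higher in MCAO left than in the control and 2, P2ry12 and Tmem119, were not. Their summed level was 23420 normalised counts in MCAO left, 7386 in MCAO right and 6981 in the control, which made MCAO left 3.35 times the control and 3.17 times MCAO right. No microglia marker was listed at the minimum, and Cd68 had 818 normalised counts in MCAO left, 147 in MCAO right and 92.0 in the control. All 12 reactive astrocyte markers were called higher too, with a summed level 9.03 times the control, and Gfap, the intermediate filament gene of astrocytes, had 76049 normalised counts in MCAO left, 12202 in MCAO right and 5903 in the control. Of 10 oligodendrocyte lineage markers 3 were called higher, at a summed level of 1.28 times the control, and of the 14 astrocyte markers 1 was called higher, at 0.952. Endothelial and mural markers had no call in this comparison, at a summed level of 0.878 of the control. The part of these cell types in the values of Stx11, Vamp8, Vamp5, Syngr2, Stx2 and Stxbp2 was not tested.

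**Figure D4:**
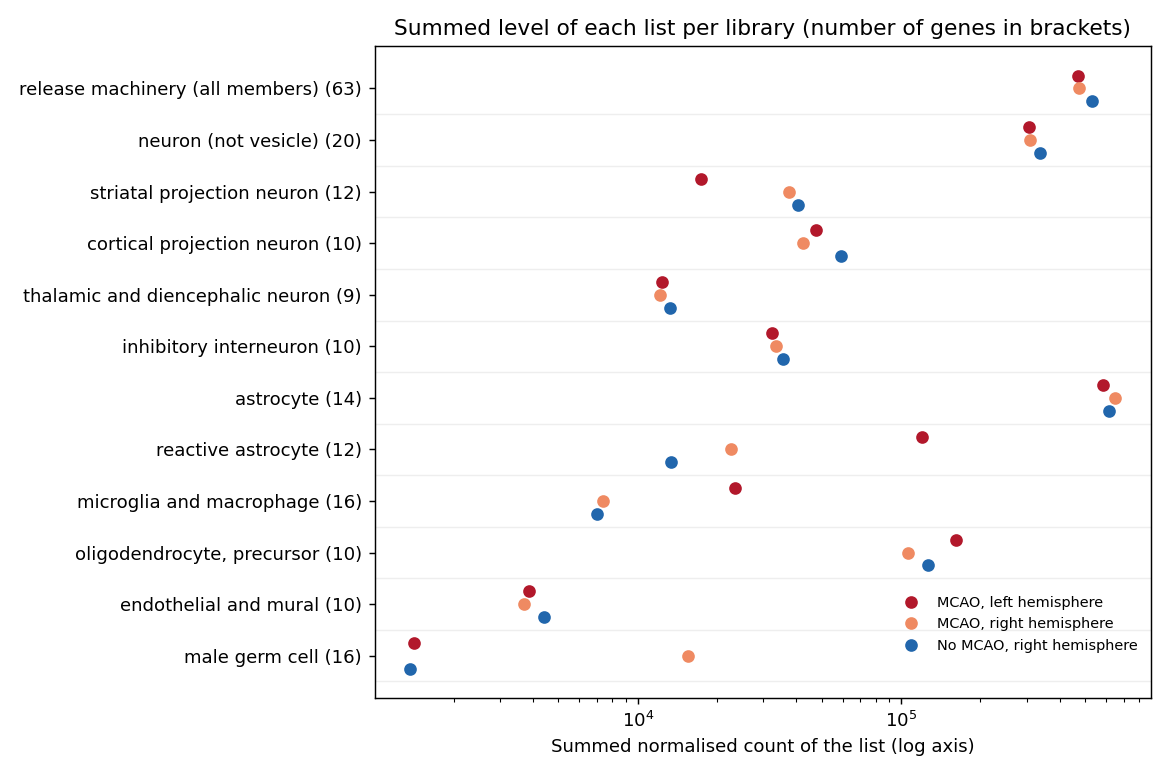
Summed normalised count of each gene list (log axis) in MCAO left (dark red), MCAO right (orange) and the control (blue), with the number of genes in brackets. The release machinery and the neuron list differ little between libraries, while the striatal list in MCAO left is at 0.426 of the control, the microglia and macrophage list at 3.35 times and the germ cell list in MCAO right at 11.4 times.

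The second comparison set MCAO left against the opposite hemisphere of MCAO animals. Of the 61 members, 5 were called lower, or 8.2%, against 7.71% of all genes, and 1 was called higher, or 1.64%, against 6.19%. The share of lower calls was thus near that of all genes. Genes high in MCAO right add to the share of all genes, and all 16 male germ cell markers were among those called lower. How far they raised it was not tested. Among the lower members were Syngr4, Syt2, Syt10 and Sv2c, and the higher one was Vamp5. At 2-fold, Syngr4 alone was lower and 0 were higher, where 4.96% of all genes were lower and 3.18% higher. Syngr4 met the mean set for the counts only through MCAO right. The median log2 difference was -0.05, with 34 members below MCAO right and 27 above it, where 50.3% of all genes were below. Syn1, Syn2 and Syngr1 were within 0.03 of no difference on the log2 scale, while Snap25 and Vamp1 were at 0.878 (0.867 to 0.890) and 0.863 (0.829 to 0.898) of MCAO right. This comparison shares the MCAO left library with the first, so their values are not independent.

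The third comparison set MCAO right against the control, that is, the same side with and without occlusion. There 1 member was called lower and 1 higher, 1.64% each, against 2.25% and 8.43% of all genes. With differences centred on the neuron list, 2 were called higher and none lower. Centring shifts all genes alike, so the shares of all genes given here do not serve for those counts. At 2-fold, 0 members were lower and 1 higher, against 0.362% and 5.17% of all genes. The lower gene was Rims4, at 0.629 of the control (0.534 to 0.740), and Syt14 was just short of the call at a log2 difference of -0.58. In all, 44 members were below the control and 17 above, with a median of -0.16, where 50.6% of all genes were below. Centred on the neuron list, 38 members were below and 23 above, with a median of -0.08. Complexins and neuronal SNAREs had the medians nearest to 0, at 0.02 and -0.01, and of the 5 neuronal SNAREs 4 were below the control, against 2 under scaling by recovered reads or centring on the neuron list. Cplx1 was at 1.01 (0.990 to 1.03) of the control, Snap25 at 0.996 (0.984 to 1.01) and Vamp2 at 1.09 (1.07 to 1.11). Slc17a7, the vesicular glutamate transporter gene of cortical neurons, was lower by more than these in MCAO right, at a log2 difference of -0.55, and the cortical projection neuron list, which holds it, had a median of -0.31 and a summed level at 0.719 of the control. Of the 20 neuron markers 2 were called lower in MCAO right, Meg3 at a log2 difference of -1.47 and Snhg11 at -0.84. No other marker of that list was called, and the list had a median of -0.08.

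Syngr4 (chromosome 7, 45886078 to 45896727) was the higher gene of this comparison, and its pattern differed from those of the other members. It had 2.35 normalised counts in MCAO left, 63.0 in MCAO right and 1.94 in the control, from 2, 71 and 2 reads. The ratio of MCAO right to control was 32.5, with an interval of 8.68 to 274 because the control held so few reads. MCAO left was at 0.0373 of MCAO right (0.00444 to 0.14). In the same library all 16 male germ cell markers were called higher than in the control, and their summed level was 11.4 times the control, with 5 of 16 listed at the minimum in the control, 3 in MCAO left and none in MCAO right. Germ cell markers such as Prm2 and Tnp1 also met the cut-off only through that library, so these calls follow in part from the filter. These calls also count in the share of all genes called higher in this comparison. The part of germ cell RNA in the Syngr4 value was not tested.

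Other genes of the release cycle, taken from 4 lists outside the symbol rule, were set beside the members. Of 23 active zone and priming genes, 2 were called lower in MCAO left than in the control and none higher, with a median of -0.17. These were Doc2b, a high-affinity calcium sensor for spontaneous release, with 834 normalised counts in MCAO left, 1369 in MCAO right and 1404 in the control, and the priming factor gene Unc13c, with 1754, 2302 and 2660 in those libraries. The scaffold genes Bsn and Pclo, partners of the RIM proteins at the active zone, were at 0.802 (0.770 to 0.835) and 0.855 (0.804 to 0.910) of the control. The vesicle GTPase gene Rab3a, whose protein binds RIM, was at 0.841 (0.825 to 0.858).

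Of 10 genes for SNARE recycling and other SNAP proteins, 1 was called, and it was higher: Snap23, the SNAP-25 relative of non-neuronal cells, with 483 normalised counts in MCAO left, 462 in MCAO right and 308 in the control, a ratio of 1.57 (1.35 to 1.82). Nsf, the ATPase that takes spent SNARE complexes apart, was at 1.02 (1.00 to 1.04). Of 12 endocytosis genes, Cltb, a clathrin light chain gene, was called higher, at 1.52 (1.45 to 1.59), and Dnm1, which pinches off vesicles, was at 0.998 (0.984 to 1.01). Of 14 genes for transmitter loading and the vesicle membrane, 2 were called lower. Slc32a1, the vesicular GABA transporter gene, had 2410 in MCAO left, 2828 in MCAO right and 3659 in the control, at 0.659 (0.624 to 0.695), and Slc17a8, the glutamate transporter gene of scattered cell groups, had 149, 161 and 249.9. Medians of the 3 lists against the control were -0.01, 0.08 and -0.09.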

How the data were processed

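RNA from 3 RiboTag pull-downs of mouse brain, each a pool of animals, was analysed from a table of gene symbols with 1 column per library. The authors deposited a normalised signal per gene: from the values, whole reads scaled by 1 factor in each library, and listed at 1 where lowest. Build mm10, R 3.3.1 with DESeq2, Partek 6.6, HISAT2 2.0.11 and CASAVA 1.8 appear in the submitters' processing notes, without their order. Columns were matched to samples by description. A few members count in the totals but are not reported here by name.

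Reads were recovered from the spacing of low values: 1 read was worth 1.18 normalised counts in MCAO left, 0.887 in MCAO right and 0.969 in the control, and 99.9% of values above 1 were whole within 0.1 read in each. A value of 1 was taken as 1 read. Differences used log2(value + 5), which understates those of low genes, over 14906 genes with a mean of at least 20. Calls were made at 1.5-fold and, as an alternative, at 2-fold. Ratios are of normalised counts without the pseudocount, with exact Clopper-Pearson 95% intervals, and as no molecular identifiers were used here, reads may share a molecule. With 1 library per group no test was made. The calling was tested on simulated reads with counting error only, where differences larger than the call were planted in genes well above the mean cut-off. That test does not bear on calls near 1.5-fold or on variation between animals. Members and lists were chosen with earlier results of these data known. Any member could be named, full values being given for a fixed set and for the 5 highest and 5 lowest of each comparison, with other members, and Bsn, Pclo, Rab3a, Nsf, Dnm1 and Slc17a7, added for their role or position after their values were seen. Levels were not compared between genes, since transcript lengths were not used here. Coordinates are from RefSeq, GRCm38.p6, in which all 63 members were found. Python 3.11.15, pandas 2.3.3 and scipy 1.17.1 were used.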

Additional observations from a re-analysis of the deposited data

How the results depend on the processing

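No paired analysis was possible because each group had 1 library. For the same reason no library could be left out within a group. The counts of members called are small and depend on the size of the call. At 2-fold, MCAO left against the control had 0 members higher and 3 lower, MCAO left against MCAO right had 0 higher and 1 lower, and MCAO right against the control had 0 lower. With no filter on low values, 2 members were higher in MCAO left than in MCAO right, Stx11 being added. With a mean of at least 200, MCAO left against MCAO right had 0 higher and 3 lower, and MCAO right against the control had 0 higher, since low genes such as Syngr4 and Vamp5 left the count. With a pseudocount of 1, MCAO right against the control had 2 lower. Centred on the neuron list, MCAO right against the control had 2 higher and 0 lower. The share of all genes called changes with these settings too. For MCAO left against the control it went from 9.16% higher and 5.18% lower to 4.68% and 2.9% at a mean of at least 200. The counts under other settings are therefore not comparable with the main shares of all genes.

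The other counts stayed within 1.5-fold, and the median of the members ran over -0.18 to -0.09 for MCAO left against the control, -0.07 to -0.03 for MCAO left against MCAO right and -0.17 to -0.08 for MCAO right against the control, under the alternatives tried: another pseudocount, no filter, a higher mean, scaling by recovered reads, and centring on all genes or on the neuron list. Scaling by recovered reads moved the median of all genes by at most 0.04 on the log2 scale. For the 39 named members, 677 of 693 recomputed differences kept their sign. All 126 of called differences did so, but that outcome was fixed in advance. The rescalings shifted differences by much less than 1.5-fold, and the pseudocount and filters cannot reverse a sign. Counting intervals are wide for Syngr4, Stx11, Syt15, Stxbp3-ps and Syt10, which rest on few reads, and variation between animals was not measurable with 1 pool per group.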
